A study of Mus musculus with 8 samples.

Results

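The nuclear-encoded genes of the mitochondrial respiratory chain and the ATP synthase were followed in mouse embryonic stem cells (ES cells) labelled as knockouts of Rex-1 and in the J1 wild-type line. Members were all genes whose symbol begins with Ndufa, Ndufb, Ndufc, Ndufs, Ndufv, Sdha, Sdhb, Sdhc, Sdhd, Uqcr, Cox4i, Cox5, Cox6, Cox7, Cox8 or Atp5 and that have a probe set with 1 symbol. This gave 94 genes of 18193 on the array, measured by 185 probe sets, and each gene was read from the probe set with the highest mean log2 signal over the 8 arrays. All 94 passed the filter on low values, a log2 signal of at least 4 in at least 2 arrays. They comprise 44 genes of complex I, 8 of complex II, 8 of complex III, 17 of complex IV and 17 of complex V. By role, 73 are core or accessory subunits, 8 are isoforms known from particular tissues and 13 are assembly factors that are not subunits.

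The 4 groups, with 2 single-colour arrays each, were Rex-1 knockout cells without leukemia inhibitory factor (LIF), the same knockout cells with LIF, J1 cells without LIF and J1 cells with LIF. All cells grew on gelatin in a medium that holds glutamine and sodium pyruvate, both fuels of mitochondrial respiration, and the labels name J1 as the source of the knockout cells too. The labels give no allele, clone or line number for the knockout, and a 12 hour period without LIF is named in a text common to all arrays. One array of each group carries the suffix r in its title, with no statement of what it marks; it is called the suffix r array and its partner the first array. The series text calls them biological replicates, but p-values here measure only the spread between these arrays.

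Complexes I and II pass electrons from NADH and succinate to ubiquinone, complex III passes them to cytochrome c, and complex IV passes them to oxygen. The proton gradient built on the way drives complex V, the ATP synthase. Most subunits are encoded in the nucleus, and their promoters are known for binding sites of NRF1, of GABP (an ETS factor) and of YY1, a zinc finger protein related to Rex-1. LIF acts through STAT3, and ES cells are known for drawing much of their ATP from glycolysis.

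Facts of the whole series bear on the results as follows. Median signal ran from 114.2 to 143.5 per array, and the suffix r array of knockout cells with LIF had the largest share of probe sets with a log2 signal of at least 4, 91.2%. Zfp42, which encodes Rex-1, had signals of 16729 and 17139 in knockout cells without LIF and 17283 and 17997 in knockout cells with LIF, against 20563 and 18217 in J1 cells without LIF and 23255 and 18483 in J1 cells with LIF. In each such pair the suffix r array stands before the first array, here and throughout. The signal thus stayed far above background under the knockout label. No source used here places this probe set relative to the deletion, so it does not check the labels, and knockout cells below are cells labelled knockout. Stat3 had 992 and 966 without LIF and 2363 and 1958 with LIF in knockout cells, and 699 and 1389 without LIF and 2328 and 1997 with LIF in J1 cells, so all 4 arrays without LIF were below all 4 with LIF. The 9 ES cell markers summed to 71893 to 98138 per array, which goes with the labelled cell type. The 10 fibroblast markers summed to 8013 to 13222 in knockout arrays, against 8286 and 10635 in the suffix r arrays and 24299 and 26472 in the first arrays of J1 cells. The 7 trophoblast markers summed to 2513 to 6385 in knockout arrays, against 2368 and 3182 in the suffix r arrays and 14444 and 15711 in the first arrays of J1 cells. The 8 endoderm markers summed to 1307 and 1241 in the suffix r arrays and 869 and 827 in the first arrays of knockout cells, against 951 and 911 in the suffix r arrays and 741 and 772 in the first arrays of J1 cells. No marker of these lists was below the floor in 7 or more arrays. The part of these differences in the results was not tested.

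The promoters of the members hold the known motifs of this gene class more often than promoters at large, including letters searched for as a core of YY1 and its relative Rex-1. The RefSeq promoter table (GRCm38.p6, 250 bases before to 50 after the annotated start) has an entry for 78 of the 94 members. Exact letters were searched on both strands. The NRF1 core GCGCATGCG was found in 9 of 78 member genes (11.5%) and in 1.95% of all 27025 genes in the table. The ETS letters CCGGAAG were found in 22 members (28.2%) and in 9.93% of all genes. The YY1 and Rex-1 core AAGATGGCG was found in 7 members (8.97%) and in 1.64% of all genes. A match describes the letters and shows no binding. No source used here shows that Rex-1 binds the letters AAGATGGCG, and the YY1 and Rex-1 core is only their name in this text. The 7 members that hold this core are shown with it in capitals, within up to 30 bases of the gene's strand. The core starts at the given number of bases from the annotated start.
Atp5j, chr16:84835045-84835074, minus strand, 88 bases before the start: aagtgtaggaAAGATGGCGgagtcttagct
Atp5j2, chr5:145191499-145191528, minus strand, 23 bases after: ccaggacttcAAGATGGCGtcactcggtga
Ndufa9, chr6:126849096-126849125, minus strand, 29 bases after: attgtgggagAAGATGGCGgccgccgtccg
Ndufaf8, chr11:120098934-120098963, plus strand, 10 bases after: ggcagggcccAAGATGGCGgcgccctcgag
Ndufc1, chr3:51408914-51408943, minus strand, 22 bases after: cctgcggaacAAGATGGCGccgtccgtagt
Ndufs4, chr13:114388045-114388069, minus strand, 35 bases after: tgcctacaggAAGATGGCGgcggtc
Ndufs7, chr10:80249463-80249492, plus strand, 24 bases after: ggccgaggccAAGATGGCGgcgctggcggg
In 6 of the 7 the core lies just after the start, and in Atp5j it lies before it. The 9 members with the NRF1 core are Atp5g2, Atp5k, Atp5l, Cox6a1, Ndufa8, Ndufaf4, Ndufaf5, Uqcr11 and Uqcrc1. Of these, Atp5k, Atp5l, Cox6a1 and Uqcr11 hold NRF1 and ETS letters together. Cox6a1 (complex IV) and Atp5l (complex V) are shown as examples over the 250 bases before the start, with both motifs in capitals.
Cox6a1, chr5:115348959-115349208, minus strand: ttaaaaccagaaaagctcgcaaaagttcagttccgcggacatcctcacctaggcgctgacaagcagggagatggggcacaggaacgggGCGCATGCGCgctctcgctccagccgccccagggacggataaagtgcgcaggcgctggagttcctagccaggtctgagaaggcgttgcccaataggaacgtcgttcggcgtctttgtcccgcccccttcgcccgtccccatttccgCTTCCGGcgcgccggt
Atp5l, chr9:44920743-44920992, minus strand: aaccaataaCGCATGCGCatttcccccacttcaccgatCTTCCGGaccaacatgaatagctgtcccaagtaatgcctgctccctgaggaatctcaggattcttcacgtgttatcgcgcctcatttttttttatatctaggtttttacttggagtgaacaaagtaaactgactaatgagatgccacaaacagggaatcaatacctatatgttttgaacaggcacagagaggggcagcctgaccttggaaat
In Cox6a1 the NRF1 letters match on both strands at overlapping positions.

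The first comparison asked whether loss of Rex-1 goes with a different level of the respiratory chain transcripts. Averaged over both LIF states, the median difference of the 94 members, knockout minus J1, was -0.01 on the log2 scale, with 46 members higher and 48 lower, and the median over all 17832 genes kept was 0.01. No member passed limma's test at an adjusted p under 0.05 and neither did any of the 43439 probe sets tested (0.00%). At an unadjusted p under 0.05, 1 member passed, against 5.27% of all probe sets, and 0 to 6 members did under the other settings tried. For 88 of the 94 members the 95% interval of the difference lay within 1 log2 unit of 0, against 55.3% of all genes and 96.0% of the 3982 genes with a mean log2 signal of at least 10. The 6 members with wider intervals are Cox6a2, Cox7b2, Cox7c, Cox8b, Ndufa4l2 and Ndufb4. The median interval of a member reached 0.43 to each side, in a fit that counts the difference between suffix r and first arrays as spread. A call needed an adjusted p under 0.05 over all 43439 probe sets, so differences larger than that could go uncalled too. Ndufa4l2, at -1.48, was not called (limma, adjusted p = 0.736).

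**Figure D1:**
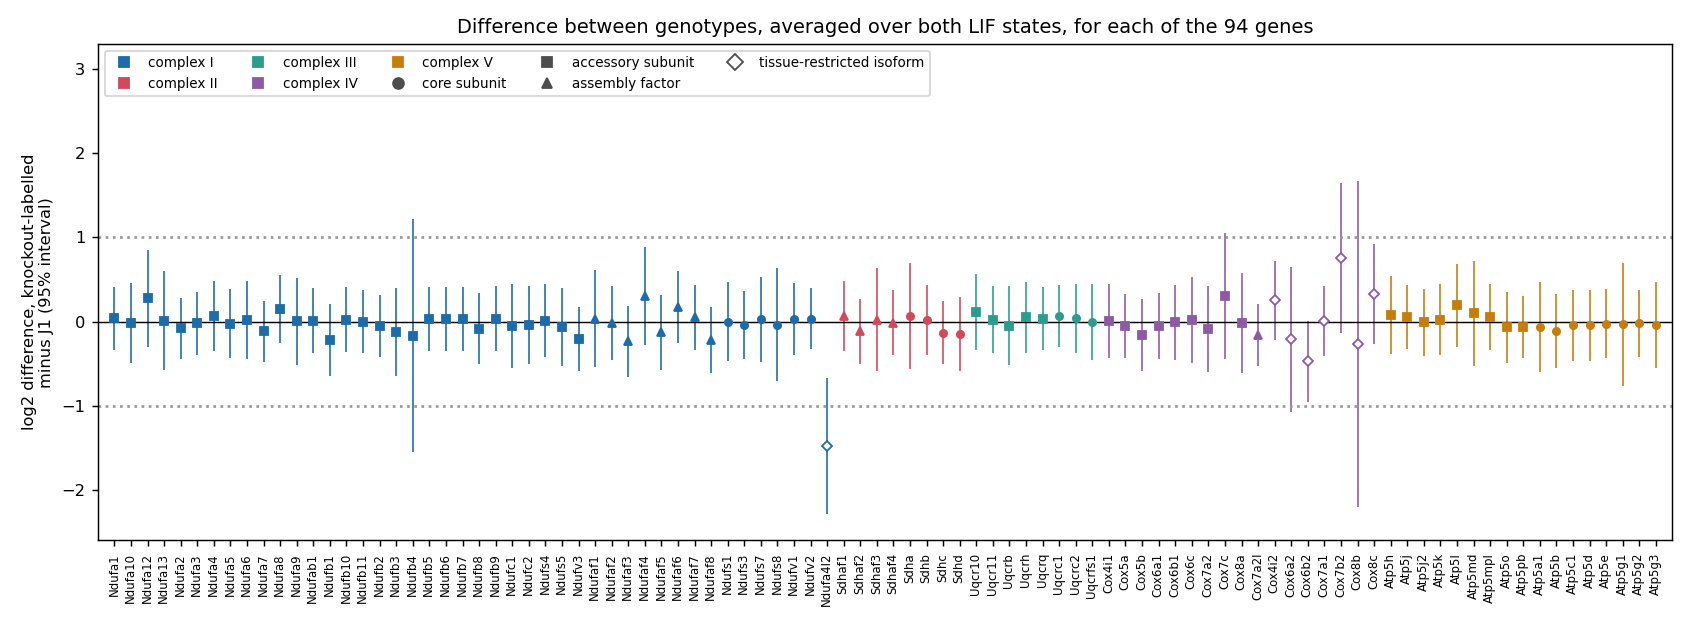
The log2 difference of each of the 94 genes, knockout-labelled minus J1 arrays, averaged over both LIF states, is drawn with its 95% interval (n = 4 arrays a genotype). Colours mark the complex and symbols the role, and dotted lines mark 1 log2 unit. Most points lie close to 0, and Ndufa4l2 is lowest at -1.48.

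At the probe set read for each gene, core subunits, which carry the redox centres or the catalytic sites, had nearly equal signals in the 2 genotypes. Ndufs1, the iron-sulphur subunit of complex I, had 3787 and 2969 in knockout cells without LIF and 3763 and 3183 with LIF, against 3792 and 3273 in J1 cells without LIF and 3722 and 2913 with LIF. Its difference was 0.00 on the log2 scale (SE 0.19, the standard error of limma's fit with 2 arrays a group, as throughout). The NADH-binding subunit Ndufv1 had 6198 and 5030 without LIF and 5962 and 5303 with LIF in knockout cells, against 5876 and 5271 and then 5911 and 4948 in J1 cells, a difference of 0.03 (SE 0.17). In both genes the suffix r arrays were above the first arrays in every group, and the genotypes overlapped. The 6 core subunits of complex I had a median difference of 0.01. Some of their other probe sets lay further from 0. Those of Ndufv2 gave 0.03 (SE 0.16) and 0.61 (SE 0.21). Those of Ndufs8 gave 0.20, 0.16, -0.09, 0.07 and 0.55.

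In complex II, Sdha, the flavoprotein that oxidises succinate, had 5259 and 4275 without LIF and 6142 and 4178 with LIF in knockout cells, against 5603 and 4306 without LIF and 5596 and 3560 with LIF in J1 cells. The genotypes overlapped, and the difference was 0.07 (SE 0.25). Sdhb, its iron-sulphur partner, differed by 0.02 (SE 0.17). The membrane anchors Sdhc and Sdhd had the smallest p-values of the complex, with differences of -0.13 (SE 0.15, adjusted p = 0.994) and -0.14 (SE 0.18, adjusted p = 0.994).

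Complex III was the complex with the highest median, 0.04 over 8 genes, of which 6 were higher in knockout arrays, and none passed the test. Uqcr10, a small accessory subunit, had the largest difference in it, 0.11 (SE 0.18). Its other, dimmer probe sets gave 0.42 (SE 0.18) and 0.27 (SE 0.19). Uqcrc1, a core protein, differed by 0.07 (SE 0.15) and Uqcrfs1, the Rieske iron-sulphur protein, by -0.01 (SE 0.18). In complex IV the 9 subunits of general use had a median of -0.02. Cox4i1 had 18260 and 16406 without LIF and 20771 and 18696 with LIF in knockout cells, against 19029 and 16261 without LIF and 21790 and 16908 with LIF in J1 cells, a difference of 0.01 (SE 0.18). Cox5a differed by -0.05 (SE 0.15).

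In complex V the median was -0.02 over 17 genes. Atp5b, the catalytic beta subunit, had 19214 and 18035 without LIF and 21227 and 21448 with LIF in knockout cells, against 23647 and 18366 without LIF and 25039 and 19838 with LIF in J1 cells. Its difference was -0.11 (SE 0.18, 95% interval -0.56 to 0.33), and the groups overlapped. Atp5a1, the alpha subunit, differed by -0.06 (SE 0.22). Atp5l, the g subunit, had the largest value of the complex in the other direction, 0.19 (SE 0.20). The 8 genes of the F1 head and the c-ring all had values below 0, between -0.11 and -0.02, with a median of -0.04. That common sign was not stable, since 5 of the 8 were below 0 when each gene was taken as the mean of its probe sets and 6 after quantile normalization.

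The 8 tissue-restricted isoforms, all with a mean log2 signal under 10, held the 4 largest differences between genotypes. Ndufa4l2, a paralogue of Ndufa4 that is known to be induced by hypoxia, had 52.7 and 48.1 without LIF and 31.0 and 75.05 with LIF in knockout cells, against 139.5 and 150.2 without LIF and 109.2 and 155.4 with LIF in J1 cells. Every knockout array was below every J1 array. The difference was -1.48 (SE 0.32, 95% interval -2.28 to -0.67), which is 0.36 times the J1 level, and it did not pass the test (adjusted p = 0.736). It was -1.43 with LIF and -1.52 without LIF (adjusted p = 0.922 and 1.00). Leaving out single arrays moved the averaged difference between -1.80 and -1.16. The gene has 1 probe set on the array.

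Cox6b2, known from testis, had 447 and 385 without LIF and 568 and 402 with LIF in knockout cells, against 669 and 563 without LIF and 650 and 593 with LIF in J1 cells. The suffix r array of knockout cells with LIF was just above the lowest J1 array, and the other 3 knockout arrays were below all J1 arrays. The difference was -0.47 (SE 0.19, adjusted p = 0.954). Cox7b2, also known from testis, had 107.5 and 97.3 without LIF and 112.0 and 140.6 with LIF in knockout cells, against 75.5 and 73.3 without LIF and 35.5 and 102.4 with LIF in J1 cells, a difference of 0.76 (SE 0.36, adjusted p = 0.978). Without the suffix r array of J1 cells with LIF that difference was 0.38. Cox4i2, a hypoxia-responsive isoform of lung, differed by 0.25 (SE 0.19), and Cox8c, known from testis, by 0.33 (SE 0.24). The muscle isoforms Cox6a2, Cox7a1 and Cox8b differed by -0.21 (SE 0.35), 0.01 (SE 0.17) and -0.26 (SE 0.78).

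**Figure D2:**
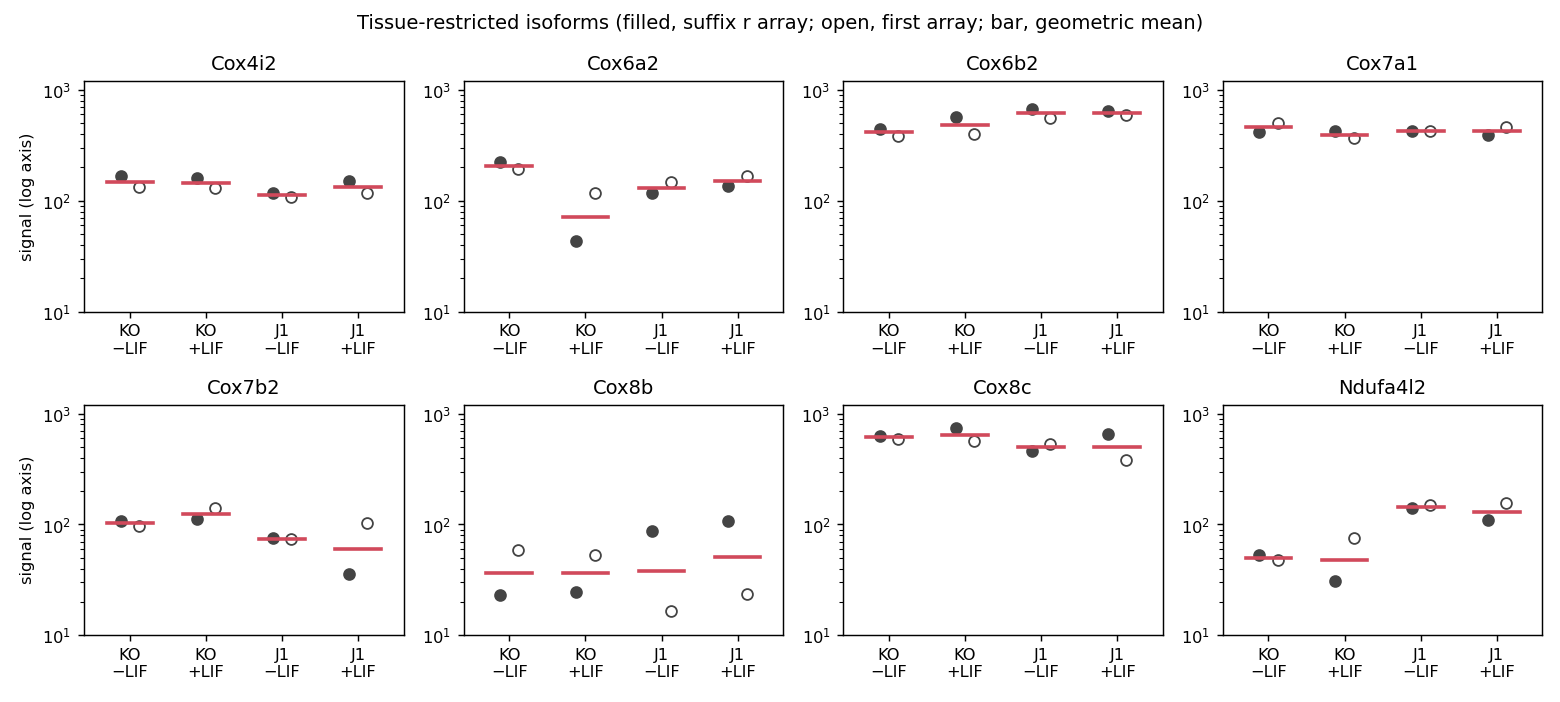
Signal of the 8 tissue-restricted isoforms on a log axis, with knockout groups left of J1 groups, filled points for suffix r arrays, open points for first arrays and bars for the geometric mean of the 2 arrays. The 4 Ndufa4l2 points of knockout arrays, 31.0 to 75.05, lie below the 4 of J1 arrays, 109.2 to 155.4.

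Beyond Ndufa4l2, 2 further members had every knockout array below every J1 array. Ndufv3, an accessory subunit beside the NADH site, had 3743 and 3586 without LIF and 3811 and 3804 with LIF in knockout cells, against 4260 and 4559 without LIF and 3949 and 4518 with LIF in J1 cells. The difference was -0.21 (SE 0.15, adjusted p = 0.985). Ndufaf8, a complex I assembly factor whose promoter holds the YY1 and Rex-1 core printed above, had 2362 and 2309 without LIF and 2226 and 2491 with LIF in knockout cells, against 2568 and 2969 without LIF and 2539 and 2839 with LIF in J1 cells. The difference was -0.22 (SE 0.16, adjusted p = 0.985). Together 3 of 94 members were below without overlap, where 1.94% of all genes and 2.44% of genes whose mean log2 is 10 or more were, and 0 members were above, where 2.32% and 2.51% were. These shares are near the background. The 7 members with the YY1 and Rex-1 core had a median difference of 0.00, and 3 of them were lower in knockout arrays, and the 71 members with a promoter entry but no such core had a median of -0.02. Ndufs7, a core iron-sulphur subunit that carries it, differed by 0.03 (SE 0.20) and Ndufs4, an accessory subunit, by 0.01 (SE 0.18).

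The assembly factors had a median of -0.01 over 13 genes. Ndufaf4 was highest, with 1813 and 2288 without LIF and 1776 and 2279 with LIF in knockout cells, against 1473 and 2139 without LIF and 1273 and 1809 with LIF in J1 cells, a difference of 0.30 (SE 0.24). Its second probe set gave -0.09 (SE 0.23). Ndufaf3 was lowest at -0.24 (SE 0.17). Cox7a2l, which is known to join complexes III and IV into supercomplexes, differed by -0.16 (SE 0.15). Taken per LIF state, the median over the members was 0.02 with LIF and -0.02 without LIF. With LIF, the smallest p-values of members above 0 after Cox7b2 (1.06, SE 0.51) were those of Ndufaf6 at 0.31 (SE 0.24) and Ndufaf4 at 0.41 (SE 0.33), and Cox6a2 and Cox6b2 were at -1.08 (SE 0.49) and -0.38 (SE 0.27). With single arrays left out, these values with LIF ran from 0.29 to 1.82 for Cox7b2, lowest without the suffix r array of J1 cells. They ran from -1.79 to -0.37 for Cox6a2 and from -0.63 to -0.13 for Cox6b2, each between the 2 settings that leave out an array of knockout cells with LIF. The value of Ndufaf4 was 0.12 with each gene as the mean of its probe sets. Without LIF, Cox4i2, Cox6a2 and Cox7c, a small complex IV subunit, were at 0.39 (SE 0.27), 0.67 (SE 0.49) and 0.43 (SE 0.43), and Cox6b2 and Ndufv3 at -0.57 (SE 0.27) and -0.27 (SE 0.21). Of 43439 probe sets 0.00% were called in each state, and 1 member, Ndufa4l2, had an unadjusted p under 0.05 in each, against 5.02% of all probe sets with LIF and 3.68% without.

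The comparison of cells without and with LIF asked whether the transcripts moved when the factor was absent. Most members had slightly lower signals without LIF in the knockout cells, and no member passed the test. There the median was -0.07, and 76 of 94 members were lower (80.9%), against a median of -0.01 and 51.5% lower among all genes and 53.0% lower among genes whose mean log2 is 10 or more. In J1 cells the median was -0.02, with 57 of 94 lower (60.6%), against 49.8% of all genes. Leaving out single arrays moved that median between -0.11 and 0.05 and the count between 32 without the suffix r array of J1 cells with LIF and 72. Averaged over both lines the median was -0.04, with 62 lower (66.0%), against 51.0% of all genes. Leaving out single arrays moved this averaged median between -0.10 and 0.0044 and the count between 45 and 74. The sign thus turned here too, without the first array of knockout cells without LIF. The calls were 0 of 94 in J1 cells, in knockout cells and averaged, with 0.00% of all probe sets in each of the 3. At an unadjusted p under 0.05 there were 0 members in J1 cells (3.61% of all probe sets), 1 in knockout cells (4.07%) and 0 averaged (4.02%), and with other settings at most 3 averaged. The 95% interval was within 1 log2 unit of 0 for 91 of 94 members averaged over lines, against 57.1% of all genes and 96.7% of those whose mean log2 is 10 or more.

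The lower values in knockout cells were found in all complexes. The number of lower members was 34 of 44 in complex I, 6 of 8 in complex II, 7 of 8 in complex III, 12 of 17 in complex IV and 17 of 17 in complex V, with medians of -0.04, -0.09, -0.08, -0.10 and -0.12. It rested largely on 1 array. Between the suffix r arrays the median of the 94 members was -0.03 and between the first arrays -0.13, and without the first array of knockout cells without LIF it was -0.01, with 50 of 94 lower. The first array of knockout cells without LIF had the lowest member median of the 8 arrays, 0.12 log2 units below the members' own means. This low median is itself part of the difference. The same array had the lowest highest signal, 28619, where the other 7 arrays reached 30766 to 54368. First arrays in general had lower highest signals, 28619 to 36208, than suffix r arrays, 37876 to 54368. The part of these measures in the lower values without LIF was not tested. After quantile normalization, which makes the arrays' distributions equal, the median in knockout cells was -0.03 with 58 of 94 lower, and the number of lower members was 25 of 44 in complex I, 6 of 8 in complex II, 4 of 8 in complex III, 9 of 17 in complex IV and 14 of 17 in complex V, where the median was -0.04. With single arrays left out, the number lower ran from 17 to 37 of 44 in complex I and from 12 to 17 of 17 in complex V. Both were lowest without the first array of knockout cells without LIF.

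**Figure D3:**
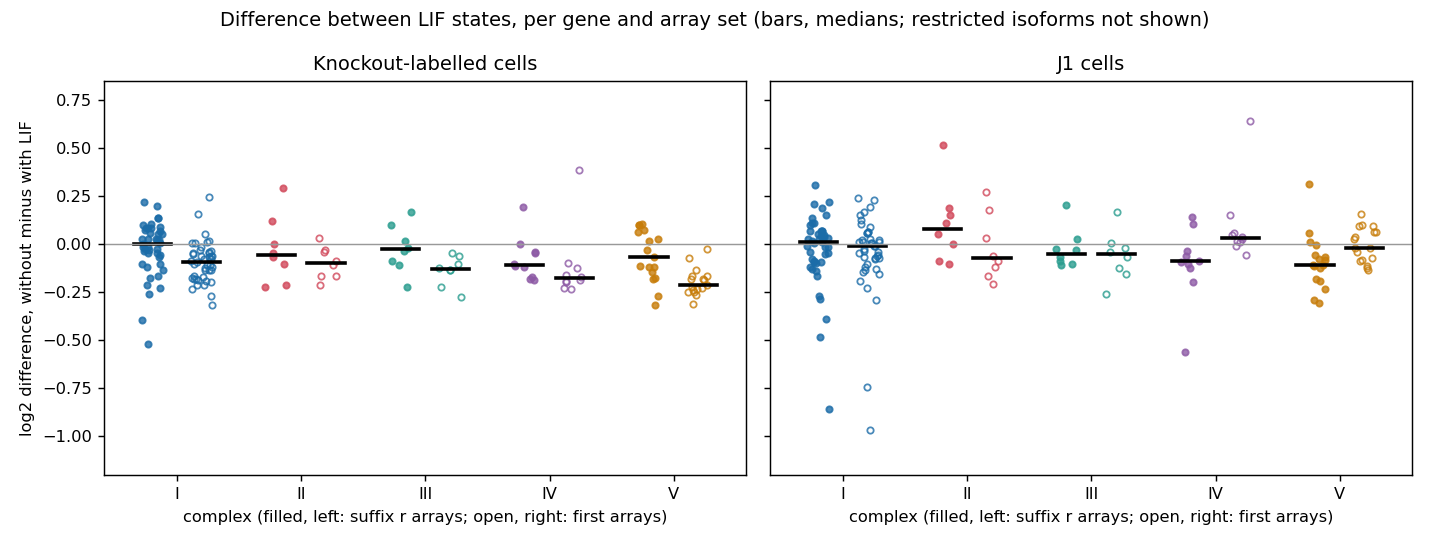
Per-gene log2 differences, without minus with LIF, for knockout-labelled cells (left) and J1 cells (right) by complex. Filled points are differences between suffix r arrays, open points between first arrays, and bars are medians; the restricted isoforms are not drawn. In knockout cells the complex V bar is at -0.06 for suffix r arrays and at -0.21 for first arrays.

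Within complex V, Atp5h, the d subunit of the stalk, had the smallest p averaged over lines. It had 13965 and 13005 without LIF and 17397 and 14745 with LIF in knockout cells, and 14084 and 12022 without LIF and 17415 and 12746 with LIF in J1 cells. Each array without LIF was lower than the array of the same line and suffix with LIF, and the states overlapped across lines. The difference was -0.22 (SE 0.19, adjusted p = 1.00). Atp5b gave -0.15 (SE 0.18) and Atp5e, the epsilon subunit, -0.14 (SE 0.17). The 8 F1 and c-ring genes were all lower averaged over lines, with a median of -0.13, and 8 of 8 remained below 0 after quantile normalization with a median of -0.04, and 6 of 8 with each gene as the mean of its probe sets. In complex IV, 8 of the 9 subunits of general use were lower without LIF in knockout cells, with a median of -0.17. Cox4i1 had the smallest p of complex IV subunits of general use averaged over lines, at -0.16 (SE 0.18).

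In 2 members every array without LIF was below every array with LIF, against 1.40% of all genes and 1.23% of those whose mean log2 is 10 or more. The opposite order was found in 0 members, against 1.00% and 1.18%. Uqcrc1, a core protein of complex III, had 6806 and 6853 without LIF and 7227 and 7526 with LIF in knockout cells, and 6708 and 6124 without LIF and 7023 and 7321 with LIF in J1 cells, a difference of -0.14 (SE 0.15). Ndufb10, an accessory complex I subunit, had 4365 and 4294 without LIF and 4568 and 4901 with LIF in knockout cells, and 3804 and 4453 without LIF and 4586 and 5080 with LIF in J1 cells, a difference of -0.18 (SE 0.16). Neither passed the test (adjusted p = 1.00 for both). Ndufa13, which is known to bind STAT3, differed by -0.07 (SE 0.24), with an interval from -0.66 to 0.52, while the Stat3 transcript itself differed by -1.13 (SE 0.26, adjusted p = 0.980).

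Among the other named members Ndufaf6, an assembly factor, gave the lowest p of those lower without LIF, at -0.22 (SE 0.17), and in knockout cells alone -0.35 (SE 0.24). Sdhaf2, which is needed to add the flavin to Sdha, gave -0.15 (SE 0.16), Sdhb -0.13 (SE 0.17) and Uqcrq -0.12 (SE 0.15). Sdhaf3, a maturation factor of Sdhb, and Ndufa4, first assigned to complex I and later to complex IV, were higher by 0.18 (SE 0.25) and 0.11 (SE 0.17). In knockout cells alone the accessory subunits Ndufa8 and Ndufa7 were at -0.25 (SE 0.23) and -0.21 (SE 0.21), and Cox7a1 and Cox7c at 0.22 (SE 0.24) and 0.29 (SE 0.43). In J1 cells alone Ndufb1, Ndufs5 and the dim Ndufb4 were at -0.31 (SE 0.24), -0.31 (SE 0.26) and -0.91 (SE 0.79), and Ndufa4, Atp5mpl and Ndufaf4 at 0.27 (SE 0.24), 0.21 (SE 0.22) and 0.23 (SE 0.33).

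Cox6a2, the heart and muscle isoform of a complex IV subunit, had the largest difference between LIF states. It had 221 and 194 without LIF and 43.8 and 117.7 with LIF in knockout cells, and 116.7 and 146.7 without LIF and 136.8 and 168.5 with LIF in J1 cells. The lowest value by far was that of the suffix r array of knockout cells with LIF, the array with the largest share of probe sets above the floor, while the other array of that group lay near the lowest J1 array. In knockout cells the difference was 1.53 (SE 0.49, adjusted p = 1.00), and without that array it was 0.82. In J1 cells it was -0.21 (SE 0.49). A second, dimmer probe set of the gene gave 0.14 in knockout cells.

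The difference of the LIF effects between the lines was tested as an interaction. Over the members its median was -0.06 (all genes 0.00), with 64 of 94 below 0, and 49 of 94 below 0 after quantile normalization. Leaving out single arrays moved that median between -0.12 and 0.03, and 36 members were below 0 without the first array of J1 cells with LIF. No member was called (0.00% of all probe sets), and 1 member, Cox6a2 with 1.75 (SE 0.69, adjusted p = 1.00), had an unadjusted p under 0.05, against 3.55% of all probe sets. The next smallest p-values among members above 0 were those of Ndufs5 at 0.29 (SE 0.37) and Ndufs8 at 0.40 (SE 0.54), and among members below 0 those of Ndufa4 at -0.31 (SE 0.33), Atp5mpl at -0.28 (SE 0.31) and Cox7b2 at -0.60 (SE 0.72).

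The members differed more by the suffix of the array than by genotype or LIF, as genes of strong signal did in general. Each averaged over 4 arrays a side, the median size of the suffix difference was 0.18 log2 units over the members, and those of the genotype and LIF differences were 0.05 and 0.07. Over genes whose mean log2 is 10 or more these sizes were 0.17, 0.09 and 0.07. Among the members the suffix difference was mostly in 1 direction. The median of suffix r minus first arrays, over all 4 groups, was 0.13, with 68 of 94 members higher in suffix r arrays, against 0.04 for all genes and 0.00 for genes whose mean log2 is 10 or more. It was 0.15 in knockout cells without LIF, 0.07 in knockout cells with LIF, 0.16 in J1 cells without LIF and 0.20 in J1 cells with LIF. By complex the medians were 0.12, 0.04, 0.17, 0.22 and 0.16 from complex I to complex V, and that of the assembly factors was 0.05. After quantile normalization the median of all members was 0.11.

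**Figure D4:**
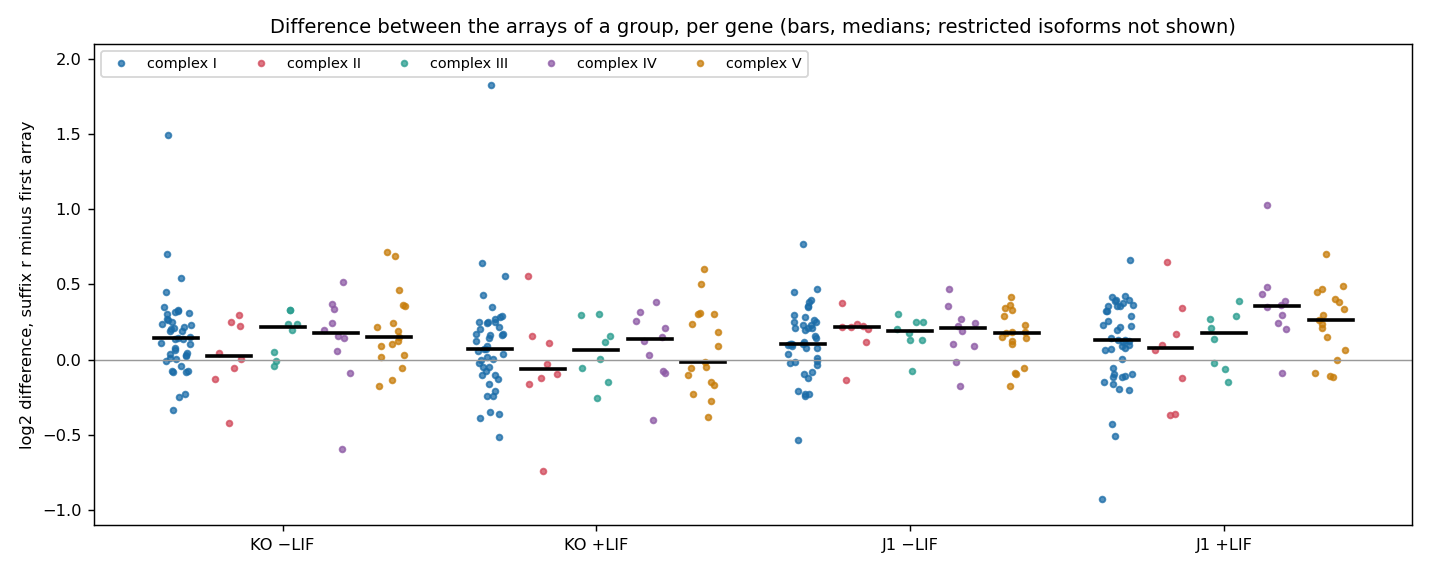
Per-gene log2 difference, suffix r minus first array, in each of the 4 groups, coloured by complex, with bars for medians; the restricted isoforms are not drawn. Most medians are above 0, and in knockout cells with LIF the complex II median is -0.06 and the complex V median -0.01.

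In 44 members (46.8%) the suffix r array was above the first in all 4 groups, against 16.5% of all genes and 25.6% of those whose mean log2 is 10 or more. In 9 members it was below in all 4 groups, against 13.7% and 22.4%. The share above was alike among mitochondrial ribosome genes (34 of 76, 44.7%), citric acid cycle genes (5 of 12, 41.7%) and uncoupling and carrier genes (4 of 9, 44.4%). It was lower among genes of cytochrome c and ubiquinone synthesis (3 of 10) and assembly factors outside the symbol rule (6 of 27, 22.2%). Pyruvate dehydrogenase genes (1 of 10) and regulators of mitochondrial gene expression (1 of 16) had the lowest shares of these lists. With all 43439 probe sets in the fit none was called (0.00%), and 12 members higher and 1 lower had an unadjusted p under 0.05, where 14.5% of all probe sets had one. The count depended on the setting. With a floor on the mean log2 of 8, limma called 11 members higher and 1 lower of 88, against 5.09% and 7.25% of 14892 probe sets. With an intensity trend and a robust prior it called 16 higher and 2 lower of 94, against 2.03% and 2.49% of all probe sets. With a floor of 10, added after the data were seen, it called 25 higher and 3 lower of 77, against 15.9% and 13.6% of 6516 probe sets. The 95% interval stayed within 1 log2 unit of 0 for 89 of 94 members, against 55.2% of all genes and 95.1% of those whose mean log2 is 10 or more.

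Atp5g1, one of the genes for the c-ring of the ATP synthase, had 12097 in the suffix r array and 7492 in the first array of knockout cells without LIF, and 13649 and 8996 in knockout cells with LIF. In J1 cells it had 11960 and 8948 without LIF and 13579 and 8339 with LIF. The difference was 0.60 (SE 0.13, adjusted p = 0.294, and 0.021 with the floor of 8), and every suffix r array was above every first array. Cox8a, a small complex IV subunit, gave 0.45 (SE 0.13), with 0.52, 0.32, 0.47 and 0.48 in the 4 groups in the order above. Sdha gave 0.47 (SE 0.14), Atp5a1 0.37 (SE 0.12), Cox6c 0.35 (SE 0.12) and Ndufb4, on a probe set of low signal, 1.19 (SE 0.26). Uqcrb and Uqcr10 of complex III gave 0.28 (SE 0.12) and 0.26 (SE 0.12), and Sdhd gave 0.23 (SE 0.13).

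The lower ones were Ndufaf4 at -0.44 (SE 0.13), Ndufc1, an accessory subunit, at -0.33 (SE 0.13) and Ndufs8, a core iron-sulphur subunit, at -0.44 (SE 0.20). Ndufaf4 was lower in suffix r arrays in all 4 groups, by 0.34 to 0.54. Other probe sets gave -0.43 for Ndufaf4, -0.11 for Ndufc1 and -0.17, -0.16, -0.13, -0.26 and 0.06 for Ndufs8. ND5, the complex I subunit encoded in mitochondrial DNA, was read on 1 probe set and looked up after the annotation was seen. It had 17799 and 10803 in knockout cells without LIF, 17849 and 9869 in knockout cells with LIF, 16257 and 8440 in J1 cells without LIF and 16390 and 8572 in J1 cells with LIF. Its suffix r arrays were all above its first arrays, by 0.86 (SE 0.13), and its difference between genotypes was 0.20 (SE 0.39).

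**Figure D5:**
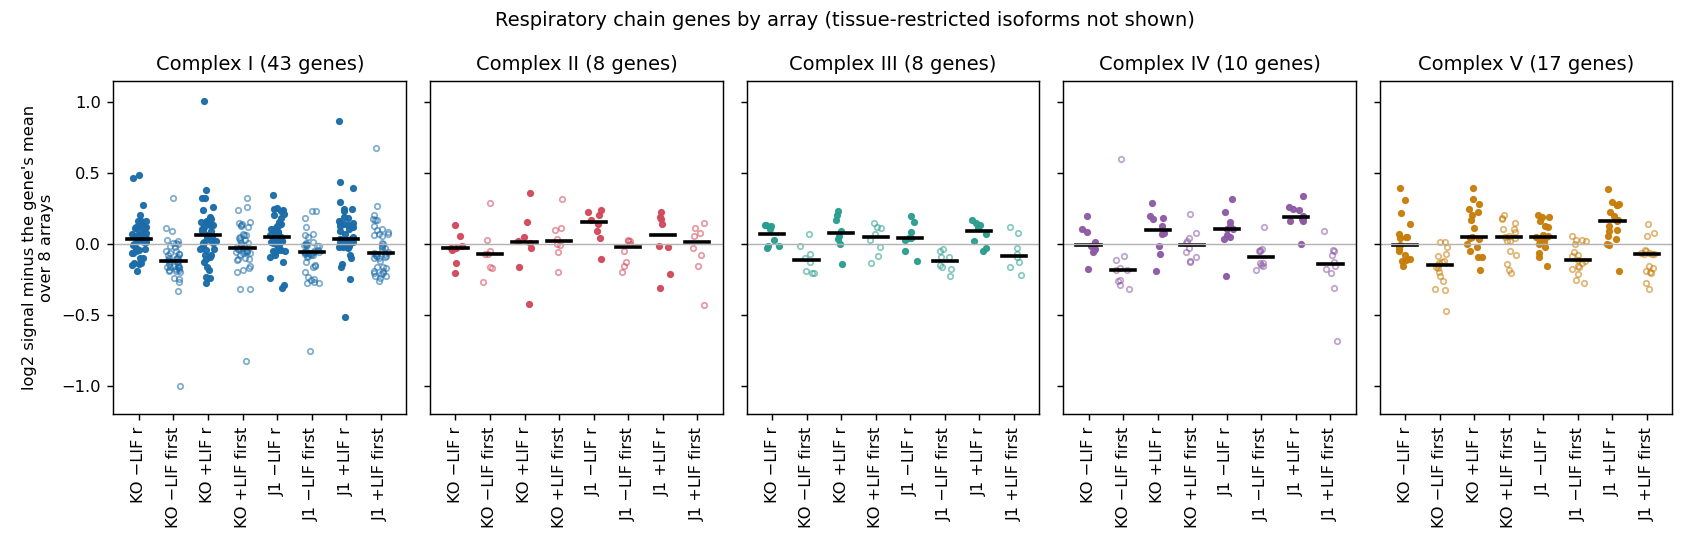
Log2 signal of each gene minus its mean over the 8 arrays, by complex, with groups ordered knockout without LIF, knockout with LIF, J1 without LIF and J1 with LIF and the suffix r array left of the first. Filled points are suffix r arrays, open points first arrays and bars medians; the restricted isoforms are not drawn. The bars of suffix r arrays lie above those of first arrays in most groups.

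Other technical measures differed along with the suffix. The highest signal was 37876 to 54368 in suffix r arrays and 28619 to 36208 in first arrays. The Gapdh control probe sets, 3' minus 5' end, gave -0.46 to -0.39 in suffix r arrays and -0.35 to -0.30 in first arrays on the log2 scale. The Actb control probe sets overlapped on the same measure, with 0.26 to 0.35 in suffix r arrays and 0.24 to 0.27 in first arrays. The fibroblast markers had median suffix r minus first differences of 0.04 and -0.85 in knockout cells without and with LIF and of -1.75 and -0.97 in J1 cells without and with LIF. For the trophoblast markers these medians were -1.07, -1.15, 0.13 and -0.88 in the same order, so that the median of each list had the opposite sign in 1 group. The summed signals of both lists were lower in the suffix r array than in the first array in every group. In the groups of opposite median they were 8013 against 11055 (fibroblast, knockout without LIF) and 2368 against 14444 (trophoblast, J1 without LIF). The endoderm markers were on the side of the members in every group, with medians of 0.88, 0.73, 0.40 and 0.30, and so were the ES cell markers, with 0.09, 0.25, 0.08 and 0.24. The part of these differences in that of the members was not tested. Of the 52 members with several probe sets above the floor, all probe sets of the gene had the same sign in 28 for the suffix, in 24 for the averaged genotype difference and in 22 for the averaged LIF difference.

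Genes that serve the chain without being members were taken from lists of the pathway, and none of these lists had a gene called in the averaged genotype or LIF comparison. The 27 measured assembly factors outside the symbol rule had medians of 0.03 for genotype and -0.04 for LIF. The smallest p-values were those of Tmem126b, an assembly factor of complex I, at -0.35 (SE 0.17), and Acad9 at 0.43 (SE 0.24) for genotype, and of Lyrm7 at -1.62 (SE 0.58) and Foxred1 at -0.27 (SE 0.18) for LIF. The 10 genes of cytochrome c and ubiquinone synthesis had medians of 0.00 and 0.04, with Pdss2 at -0.34 (SE 0.19) and 0.31 (SE 0.19), Coq3 at 0.23 (SE 0.23) for genotype, and Cycs, cytochrome c itself, at -0.08 (SE 0.16) for LIF. The 12 citric acid cycle genes had medians of 0.00 and -0.02, with Cs, citrate synthase, at -0.19 (SE 0.15) and -0.11 (SE 0.15), Suclg1 at 0.19 (SE 0.18) for genotype and Sucla2 at 0.11 (SE 0.16) for LIF.

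Among the 9 genes of uncoupling and carrier proteins, with medians of -0.04 and -0.06, Atpif1 had the smallest p for genotype. It encodes the inhibitory factor of the ATP synthase and had 6802 and 6997 without LIF and 6320 and 7171 with LIF in knockout cells, against 9429 and 8196 without LIF and 8713 and 8843 with LIF in J1 cells. All knockout arrays were below all J1 arrays, and the difference was -0.37 (SE 0.16, adjusted p = 0.960). Ucp3, an uncoupling protein, gave -0.47 (SE 0.26) for genotype and -0.20 (SE 0.26) for LIF, and Vdac1 -0.16 (SE 0.17) for LIF.

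The 76 mitochondrial ribosome genes, whose products translate the subunits encoded in mitochondrial DNA, had medians of 0.02 for genotype and -0.07 for LIF. Of these, 63 of 76 were lower without LIF, against 62 of 94 members and 9094 of all 17832 genes. Mrpl28 was at 0.55 (SE 0.21) and Mrps9 at 0.34 (SE 0.20) for genotype, and Mrps18b at -0.28 (SE 0.17) and Mrpl40 at -0.23 (SE 0.17) for LIF. The 10 genes of the pyruvate dehydrogenase complex and its regulators had medians of 0.10 and 0.02, with wide errors for the dim kinases Pdk2, at 0.93 (SE 0.67) and -1.25 (SE 0.67), and Pdk4, at 0.68 (SE 0.61) for LIF. Pdp2, a phosphatase of the complex, was at 0.23 (SE 0.20) for genotype.

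The 16 regulators of mitochondrial gene expression had medians of 0.00 for genotype and -0.01 for LIF. Nrf1 was at -0.27 (SE 0.16) and Ppargc1a, a coactivator of low signal here, at 0.72 (SE 0.55) for genotype, and Esrrb at -0.42 for LIF. Yy1 differed by 0.00 (SE 0.21) between genotypes. Between suffix r and first arrays these regulators had a median of -0.12, with Gabpa at -0.51 (SE 0.17) and Yy1 at -0.35 (SE 0.13), where the members' median was 0.13.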

How the data were processed

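RNA of 8 samples was measured on single-colour Affymetrix mouse genome arrays. The deposited values are linear intensities. GCRMA is named in the submitters' processing notes, while each column has a mean of 500 after trimming 2% at each end, so the final scaling step is not known. Log2 of these intensities was taken with no further normalization. Of 45101 probe sets, 64 controls were left out, 34945 of the rest have 1 symbol, 932 several and 9160 none; names come from the platform annotation. A floor on low values (log2 of 4 or more, reached in 2 arrays or more) left 43439 probe sets, and limma 3.58.1 in R 4.3.3 fitted all of them with 1 mean per group and Benjamini-Hochberg adjustment; a call is an adjusted p under 0.05. The difference between suffix r and first arrays came from a fit with suffix as an added term. Array number limits the precision. In the fit with 1 mean per group, the difference between suffix r and first arrays also counts as spread. The procedure was tested on simulated data.

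Genes were named by fixed rule: members called, the 3 of smallest p in each direction, 2 per complex, the large core subunits and the restricted isoforms, plus those whose groups did not overlap. For 8 pathway lists the 2 genes of smallest p were named. Further genes, among them those with a YY1 and Rex-1 core, Atp5l and ND5, were described after their values were seen. Members and lists were chosen with earlier results of these data known. Groups follow titles and treatment; the growth text of the knockout arrays without LIF mentions added LIF. Alternatives were other filters, quantile normalization, a pseudocount of 16, a trended robust prior, suffix as block, all probe sets of a gene, and leaving out arrays.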

Additional observations from a re-analysis of the deposited data

How the results depend on the processing

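In the 7 contrasts of genotype, LIF and their interaction, limma called 0 members under each setting run, also with the suffix as a replicate block, where 0 members were called too. Deviations of arrays of the same suffix correlated at 0.05 to 0.20 over all probe sets and at -0.036 to 0.72 over the 94 members, with 2 of 6 pairs under 0.1 in each, so the suffix was not taken as a pairing. The difference between suffix r and first arrays was the one comparison whose calls moved, with 12 members at a mean log2 of at least 8, 18 with a trended robust prior and 28 with the floor of 10, which was chosen after seeing the data. The members' median, knockout minus J1 with LIF, ran from -0.0711 to 0.12 when single arrays were left out. After quantile normalization 5 members in place of 3 had all knockout arrays below all J1 arrays, and 1 in place of 2 had all arrays without LIF below all with LIF; with each gene as the mean of its probe sets 2 had all knockout arrays above.

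Signs turned for some genes. Among them are Atp5a1, called for the suffix in all 3 settings above, Uqcrb, called in 2 of these, and Uqcr10 and Sdhd, called in 1. Suffix r minus first was -0.0198 for Uqcrb after quantile normalization. With the mean of all probe sets it was -0.0522 for Sdhd, -0.0326 for Uqcr10 and -0.0372 for Atp5a1. With that mean Sdhaf3 was at -0.25 for LIF averaged. The turns with this mean came from the gene's other probe sets. By probe set the suffix difference was 0.37, 0.03 and -0.52 for Atp5a1, the last at a mean log2 of 7.64. It was 0.26, -0.13 and -0.22 for Uqcr10, and 0.23 and -0.34 for Sdhd. The second probe set of Sdhaf3, at a mean log2 of 2.84, had not passed the filter on low values. With single arrays left out, Sdhaf3 ran from -0.0044 to 0.37 for LIF averaged, Ndufaf4 from -0.0423 to 0.50 for LIF in J1 cells and Cox7c from -0.0060 to 0.59 for LIF in knockout cells. Likewise the interaction ran from -0.0694 to 0.86 for Ndufs8 and from -1.36 to 0.17 for Cox7b2. The cause of the turns after quantile normalization and without single arrays was not tested. With 2 arrays a group, the members' 95% intervals, at a median of 0.43 to each side for averaged differences, limit what could be detected. They come from the fit with no suffix term, where the difference between suffix r and first arrays counts as spread. For Atp5g1 the SE was 0.30 for the averaged genotype difference. It was 0.13 for the suffix difference, from the fit with suffix as an added term.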
